A study of Mus musculus with 7 samples.

Results

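The transcription factors that give the ventral hypothalamus its regional and neuronal identity were examined in Pomc and Npy neurons sorted from the arcuate nucleus of E15.5 mouse embryos. The set holds 10 genes, listed by name with earlier results of these data known: the T-box genes Tbx3 and Tbx2, the homeobox genes Otp, Nkx2-1, Nkx2-4, Rax, Six3 and Six6, and the NK-related homeobox genes Hmx2 and Hmx3. All 10 were among the 18335 rows of the deposited table. Pomc neurons make proopiomelanocortin, whose peptides restrain feeding, and Npy neurons make neuropeptide Y, which drives it. The sources used here do not give the strain, the genotype or the sort reporter, and no treatment other than dissection and dissociation is labelled. Each library was made from 1 ng of total RNA. There were 4 Pomc libraries (Pomc 1 to Pomc 4) and 2 usable Npy libraries (Npy 1 and Npy 2). A further Npy column was left out because, in all 15223 genes with a value in Npy 1 or Npy 2, it was the mean of those columns times a whole percent between 95 and 105. The labels do not say which litters or animals stand behind a library, so the spread between libraries may be technical.

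These factors act in a rough order during development. Rax, Six3, Six6 and Nkx2-1 are expressed in the early neural plate and ventral forebrain, where they set aside hypothalamic, eye and pituitary-facing territory. T-box factors act at the ventral midline, and in mouse Tbx3 is also needed by arcuate neurons to keep their peptide identity. Otp is required in mouse for several neuroendocrine cell types, among them somatostatin neurons, and mice lacking both Hmx2 and Hmx3 lose hypothalamic growth hormone-releasing hormone.

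Pomc and Npy neurons shared most of these factors but held them in different proportions. Nkx2-1 and Tbx3 were higher in Pomc neurons, 4.28-fold and 2.30-fold on the log2(TPM + 1) scale, and both passed an adjusted p of 0.05 in limma's moderated test. No member passed in the other direction, and 8 of the 10 did not pass. The Npy gene itself, higher in both Npy libraries than in any Pomc library, did not pass either (limma adjusted p = 0.418). Among all 13845 genes tested, 0.412% were called, 0.289% higher in Pomc neurons and 0.123% higher in Npy neurons (40 and 17 genes). This split became 21 and 21 with 1 prior variance for all genes, and it became 68 and 1 without Npy 1 and 21 and 1 without Npy 2, when genes found only in Npy libraries miss the filter. In view of how the members were picked, their count is a description. TPM is a transcript level per unit of gene length, expressed so that every library has the same total. The pseudocount of 1 shrinks the fold changes of low genes such as Tbx2 and Rax. In bulk samples, fewer cells expressing a gene and less RNA per cell cannot be told apart.

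**Figure D1:**
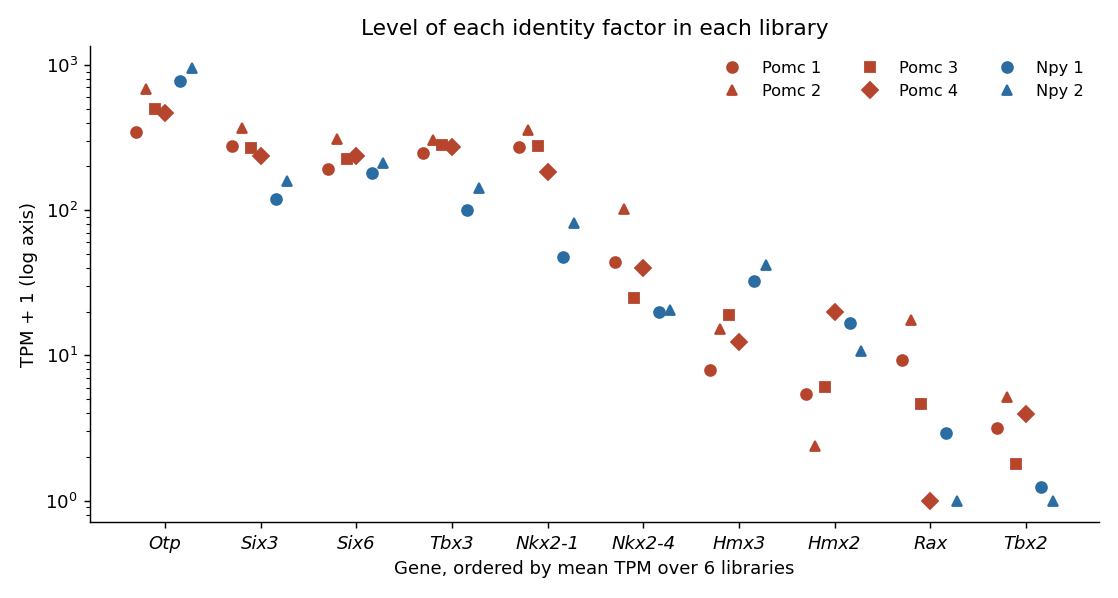
Level of each of the 10 factors in each library, as TPM + 1 on a log axis, with Pomc libraries in red and Npy libraries in blue. The red symbols lie above the blue ones for Six3, Tbx3, Nkx2-1, Nkx2-4 and Tbx2, the blue ones lie above the red for Otp and Hmx3, and the groups overlap for Six6, Hmx2 and Rax.

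Otp was the most abundant member in both cell types and lay between the 97.98th and 99.55th percentile of all genes in every library. In Pomc neurons it was followed by Six3, Tbx3, Nkx2-1 and Six6, with mean levels of 286, 274, 272 and 238 TPM, and each of these overlapped its neighbour in the order. Otp exceeded Six3 in 4 of 4 Pomc libraries although the ranges of the genes overlapped across libraries. Nkx2-4 came next at 51.4 TPM, apart from the genes on either side of it. Hmx3, Hmx2, Rax and Tbx2 formed a low and overlapping end of the order, from 12.6 down to 2.50 TPM. In Npy neurons the order changed below Otp, to Six6 (194 TPM), Six3 (137), Tbx3 (120.05), Nkx2-1 (63.3), Hmx3 (36.4), Nkx2-4 (19.3) and Hmx2 (12.7). There the Six3 and Tbx3 ranges overlapped, as did those of Rax and Tbx2.

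The summed level of the 10 genes did not separate the cell types, at 1391, 2148, 1598 and 1463 TPM in Pomc 1 to Pomc 4 and 1282 and 1614 TPM in the Npy libraries. Their make-up did. Otp took 24.8, 31.7, 31.2 and 31.9% of the sum in Pomc 1 to Pomc 4, and 60.1 and 59.3% in Npy 1 and Npy 2. Six3, Nkx2-1 and Tbx3 together took 47.2 to 56.9% in the Pomc libraries and 20.5 and 23.4% in the Npy libraries. Six6 took a like share everywhere, from 12.95 to 15.98%. A share within a library does not depend on how that library was scaled, but a rise in 1 gene lowers the shares of the others.

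**Figure D2:**
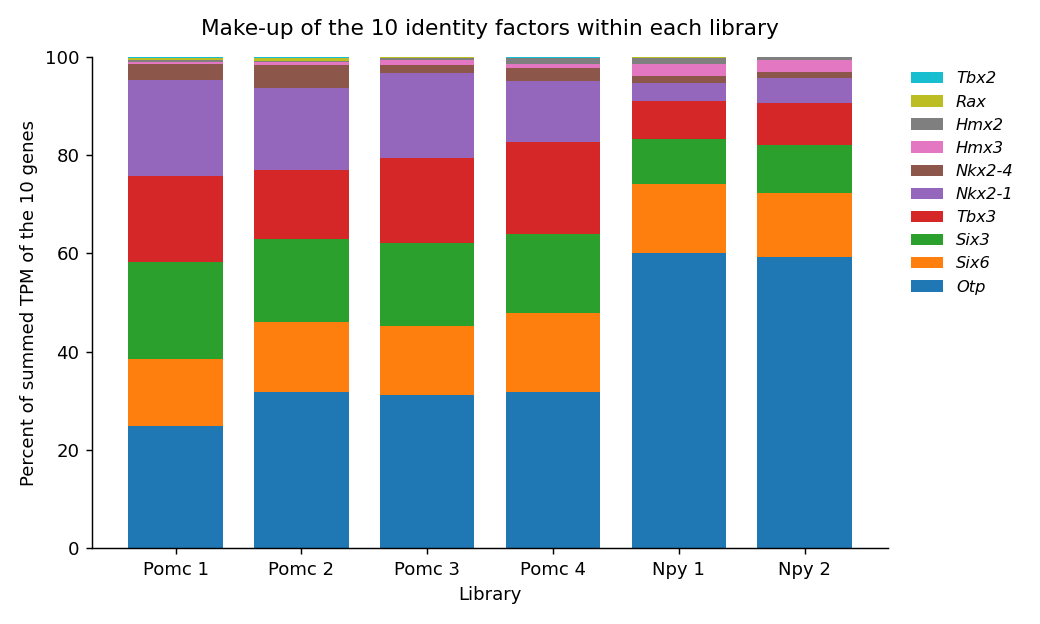
Percent of the summed TPM of the 10 factors that each gene took, 1 bar per library. Otp fills 24.8 to 31.9% of each Pomc bar and 59.3 and 60.1% of the Npy bars, while the Six6 block keeps nearly the same height.

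The bases upstream of a RefSeq transcript start are given for Nkx2-1 and Six3, which stood higher in every Pomc library, for Otp, which stood higher in both Npy libraries, and for Hmx2, whose groups overlapped and whose window holds a TATA box. RefSeq promoter windows on GRCm38.p6 were matched for 7 of the 10 genes. The 250 bases before each start were searched on both strands for CCAAT (the CCAAT box), TATAAA (the TATA box), TAATTA (a core bound by many homeodomains), CAAGTG (an NK-type site) and AGGTGTGA (a T-box site). No motif overlapped another in these windows. Capitals mark the matches, the CCAAT box reading ATTGG where it lies on the other strand. The stretches are Six3 at chr17:85620584-85620833 on the plus strand, Otp at chr13:94875386-94875601 on the plus strand, Nkx2-1 at chr12:56536909-56537158 on the minus strand and Hmx2 at chr7:131548507-131548756 on the plus strand, the one for Otp ending where its annotated exon begins.
Six3: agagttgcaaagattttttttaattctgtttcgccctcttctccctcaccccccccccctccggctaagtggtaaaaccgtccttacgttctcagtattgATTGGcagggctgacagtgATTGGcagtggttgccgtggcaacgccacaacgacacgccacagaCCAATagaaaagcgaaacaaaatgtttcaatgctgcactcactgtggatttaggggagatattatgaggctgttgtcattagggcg
Otp: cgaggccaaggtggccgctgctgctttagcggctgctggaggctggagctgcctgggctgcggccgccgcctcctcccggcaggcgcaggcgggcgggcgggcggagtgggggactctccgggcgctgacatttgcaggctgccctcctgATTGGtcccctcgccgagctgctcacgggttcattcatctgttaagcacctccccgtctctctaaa
Nkx2-1: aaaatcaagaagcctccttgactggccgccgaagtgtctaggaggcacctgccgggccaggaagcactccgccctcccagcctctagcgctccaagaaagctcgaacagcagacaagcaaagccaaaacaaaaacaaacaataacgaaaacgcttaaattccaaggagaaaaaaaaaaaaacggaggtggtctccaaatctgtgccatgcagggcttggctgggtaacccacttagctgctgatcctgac
Hmx2: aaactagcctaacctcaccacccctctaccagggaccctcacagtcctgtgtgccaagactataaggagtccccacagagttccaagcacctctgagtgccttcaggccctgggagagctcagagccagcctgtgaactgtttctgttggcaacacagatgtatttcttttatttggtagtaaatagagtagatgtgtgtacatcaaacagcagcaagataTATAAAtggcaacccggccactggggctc

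The Six3 stretch holds 3 CCAAT boxes, with first bases 150, 131 and 86 bases before the start, and 2.79% of all 32851 windows hold at least 3. Its relative Six6 has 2 such boxes, 68 and 16 bases before the start, where 10.1% of windows hold at least 2. Both lie in exon sequence of the opposite-strand gene 4930447C04Rik, which covers 172 of the 250 bases. Otp has 1 CCAAT box, at 100 bases before the start, a motif that 33.8% of windows hold at least once. Hmx2 has a TATA box 29 bases before the start shown, a motif found in 12.4% of windows. A second RefSeq start of Hmx2, with the window chr7:131554043-131554292 before it, has no TATA box and has 1 CCAAT box, 216 bases before that start. Of the 250 bases of that window, 232 are Hmx2 exon, the CCAAT box among them. None of the 5 motifs is present in the 250 bases before the starts of Nkx2-1, Nkx2-4 and Hmx3, of which only the first is printed. The matches describe the sequence only.

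Nkx2-1, the homeobox factor that specifies the tuberal and mammillary hypothalamus, was higher in Pomc neurons. It lies on chromosome 12 (56531958 to 56536908, minus strand, GRCm38). Its level was 272, 358, 277 and 182 TPM in Pomc 1 to Pomc 4 and 46.5 and 80.1 TPM in Npy 1 and Npy 2. The lowest Pomc library was thus above the higher Npy library, and Pomc 2 was the highest of all. The log2 fold change was 2.10 ± 0.30 (SE, limma adjusted p = 0.0211), with 272 ± 71.9 TPM (SD, n = 4) in Pomc neurons against a mean of 63.3 in Npy neurons. The call ended without Pomc 1, 2 or 3 or Npy 1 (adjusted p up to 0.0819) and held without Pomc 4 or Npy 2 (the lowest 0.0135). It also ended with no filter on low values (0.0848) and with 1 prior variance for all genes (0.15).

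Nkx2-4, the close relative of Nkx2-1 on chromosome 2 (147083316 to 147085445), was lower in level. It stood at 42.6, 100.4, 23.9 and 38.8 TPM in Pomc 1 to Pomc 4 and at 19.0 and 19.6 TPM in Npy 1 and Npy 2. All Pomc libraries lay above both Npy libraries, with Pomc 2 far above and Pomc 3 only just above. The log2 difference of 1.17 ± 0.50 was short of the threshold (limma adjusted p = 0.65).

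Six3 and Six6, homeobox factors of the anterior forebrain that repress targets together with Groucho-type corepressors, were both abundant. Six3 (chromosome 17, 85613608 to 85629302) stood at 274, 365, 268 and 236 TPM in Pomc 1 to Pomc 4 and at 117 and 157 TPM in Npy 1 and Npy 2. The groups did not overlap, and the log2 difference was 1.05 ± 0.22, short of the threshold (limma adjusted p = 0.131). Six6 (chromosome 12, 72939892 to 72944899) stood at 189.8, 306, 225 and 234 TPM against 179.6 and 209 TPM. Here Pomc 1 fell between the Npy libraries, and the log2 difference was 0.28 ± 0.21 (adjusted p = 0.836).

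Because TPM is scaled by length, related genes can be set against each other within a library. The log2 ratio of Six3 to Six6 was 0.53, 0.26, 0.25 and 0.015 in Pomc 1 to Pomc 4 and -0.61 and -0.41 in Npy 1 and Npy 2. By these values Six3 was the more abundant of the pair in every Pomc library, although by almost nothing in Pomc 4, and Six6 in both Npy libraries. Which gene is the more abundant depends on the gene lengths used, whose definition is not given. The group means differed by 0.77, with a two-sided exact permutation p of 0.0667, the smallest that 15 splits of 6 libraries allow, and 0.267 after Benjamini-Hochberg adjustment over the 4 pairs examined.

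The other pairs did not separate the groups. The log2 ratio of Nkx2-1 to Nkx2-4 was 2.54 ± 0.71 (SD, n = 4) in Pomc neurons against 1.25 and 1.98 in the Npy libraries (exact permutation p = 0.2, adjusted 0.4). Tbx3 exceeded Tbx2 in every library, by a log2 ratio of 5.87 to 7.30 in the Pomc libraries and 6.35 and 7.15 in the Npy libraries (exact permutation p = 0.6, adjusted 0.733). For Hmx2 to Hmx3 the ratio ran from -2.68 in Pomc 2 to 0.68 in Pomc 4, a wider span than that between -0.98 in Npy 1 and -1.97 in Npy 2 (exact permutation p = 0.733, adjusted 0.733). Its direction turned without Pomc 4 (-0.15) or Npy 2 (-0.07), and that of Tbx3 to Tbx2 turned without Npy 2 (from -0.35 to 0.047).

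**Figure D3:**
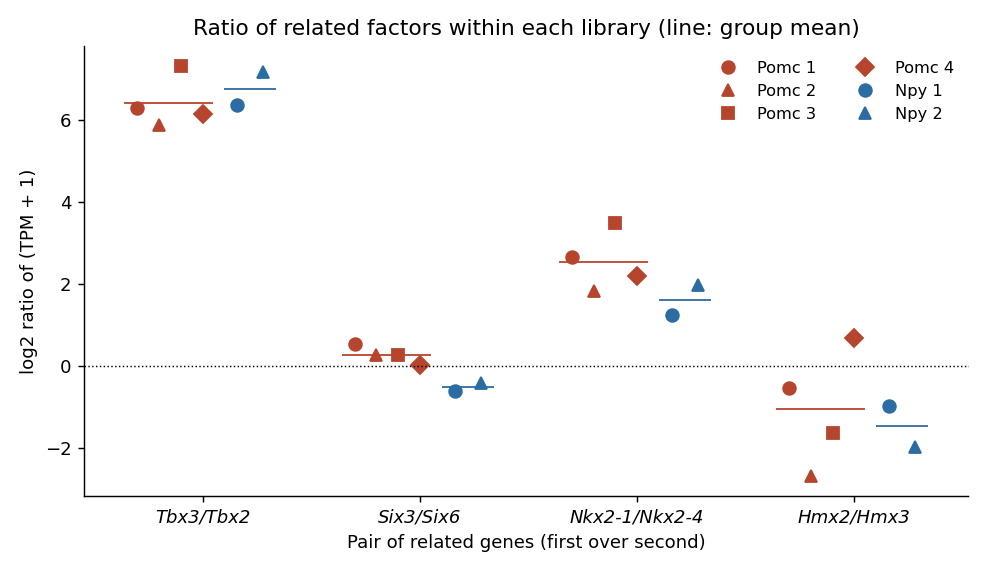
log2 ratio of TPM + 1 between 2 related genes, with 1 point per library and a line at each group mean (red Pomc, blue Npy). The Six3/Six6 points lie above 0 in the 4 Pomc libraries and below 0 in both Npy libraries, and the other pairs overlap between the groups.

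Rax, a homeobox factor of hypothalamic and retinal progenitors that persists in tanycytes, was low. Its level was 8.23, 16.4, 3.62 and 0 TPM in Pomc 1 to Pomc 4 and 1.92 and 0 TPM in Npy 1 and Npy 2. It was listed at 0 in 1 library of each group, and the groups overlapped (log2 1.61 ± 1.11, limma adjusted p = 0.815). Markers of progenitors and tanycytes were in the table for 15 of 15 listed genes and summed to 442 to 866 TPM in the Pomc libraries and 862 and 645 TPM in the Npy libraries. Vim, an intermediate filament gene, was the largest part of the sums in the Pomc libraries. It stood at 201 to 530 TPM in Pomc and 205.7 and 155 TPM in Npy libraries. The largest part in both Npy libraries was Fabp7, at 323 and 176 TPM against 1.61 to 61.6 TPM in the Pomc libraries. Of the 12 genes of this list tested, 10 had log2 differences below 0, with a median of -0.51, none was called by limma, and 2 had an unadjusted p under 0.05, both towards Npy neurons. Crym, a tanycyte gene, was listed at 0 in all 6 libraries. Col25a1, on the same list, was above 0 in all 6, at 5.09 to 24.3 TPM in the Pomc and 7.02 and 8.35 TPM in the Npy libraries. Pomc 4, with no Rax, had the highest sum, and whether such cells bear on the Rax values was not tested.

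Tbx3 (chromosome 5, 119670669 to 119684724) varied little among Pomc libraries, at 245, 301, 277 and 273 TPM in Pomc 1 to Pomc 4 against 99.2 and 140.9 TPM in Npy 1 and Npy 2. The lowest Pomc library, Pomc 1, was well above the higher Npy library. The log2 fold change of 1.20 ± 0.20 passed over all genes (limma adjusted p = 0.0397), but not without any 1 of the 6 libraries (0.0783 to 0.15). The call also ended under median-of-ratios scaling (0.0694), a pseudocount of 0.1 (0.0518), no filter (0.0858) and a single prior variance (0.244). The log2 fold change stayed between 0.95 and 1.45 when any 1 library was left out. Tbx2, its relative on chromosome 11 (85832551 to 85841948), was near the lower limit of the table. It stood at 2.16, 4.15, 0.773 and 2.93 TPM in Pomc 1 to Pomc 4, and at 0.231 and 0 TPM in Npy 1 and Npy 2. It met the filter of 1 TPM in at least 2 libraries through the Pomc libraries alone. Its log2 difference of 1.56 ± 0.70 is thus given without a test value, and it is counted among the members not called.

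Otp, a homeobox factor on chromosome 13 (94875602 to 94885130), ran the opposite way. It stood at 345, 682, 499 and 466 TPM in Pomc 1 to Pomc 4 and at 771 and 957 TPM in Npy 1 and Npy 2. Each Npy library exceeded all Pomc libraries, of which Pomc 2 came closest. The log2 difference was -0.83 ± 0.26 and missed the threshold (limma adjusted p = 0.418). Pomc 2, the Pomc library with the highest Otp level, had the lowest Npy level (2.11 TPM). This is 1 library, and whether the Otp and Npy levels are related was not tested. The Npy gene reached 54.2 to 152 TPM in the other 3 Pomc libraries and 728 and 513 TPM in Npy 1 and Npy 2. It too missed the threshold (limma adjusted p = 0.418), so a miss does not show equal levels. The Pomc gene stood at 352 to 770 TPM in the Pomc libraries. It stood at 24.0 and 59.4 TPM in Npy 1 and Npy 2. The neurons were sorted by type, so no test value is given for the Pomc gene. Agrp, listed with the tuberal peptide genes, was low, at up to 6.82 TPM in the Pomc libraries and 5.53 and 1.75 TPM in Npy 1 and Npy 2.

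Hmx3 and Hmx2 lie beside each other on chromosome 7 (131542867 to 131544925 and 131548773 to 131558014), 3847 bases apart and on the same strand. Hmx3 stood at 6.93, 14.3, 17.8 and 11.5 TPM in Pomc 1 to Pomc 4 and at 31.7 and 41.1 TPM in Npy 1 and Npy 2. The groups did not overlap, and the log2 difference was -1.52 ± 0.47 (limma adjusted p = 0.414). Hmx2 stood at 4.42, 1.38, 5.09 and 19.0 TPM against 15.6 and 9.73 TPM. Pomc 4 was above both Npy libraries and the other 3 Pomc libraries below both, which gave a log2 difference of -1.09 ± 0.83 (adjusted p = 0.836). Pomc 4 thus held Hmx2 at its highest while its Hmx3 level was in the middle of the Pomc range.

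**Figure D4:**
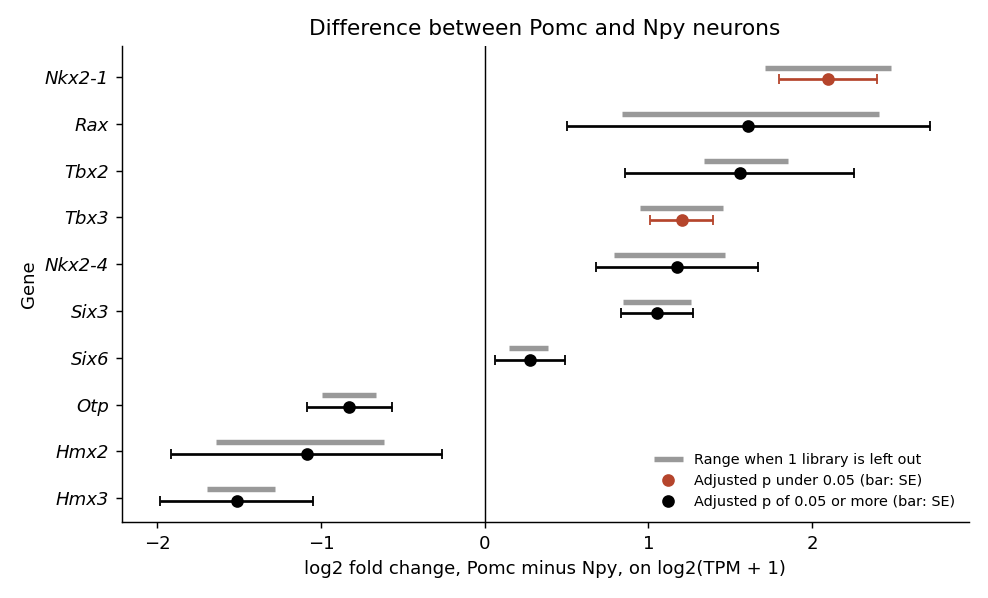
log2 fold change, Pomc minus Npy, of each factor on log2(TPM + 1), with the standard error as a thin bar and, in grey, the range of values when any 1 library is left out. Nkx2-1 and Tbx3, in red, passed an adjusted p of 0.05, and the grey bar crosses 0 for none of the 10 genes.

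Counted by position, 5 of the 10 members had all Pomc libraries above both Npy libraries and 2 had both Npy libraries above all Pomc libraries. Over all tested genes these shares were 8.05% and 7.86%. Tbx2, 1 of the 5, met the filter through the Pomc libraries alone. At an unadjusted p under 0.05 there were 4 members higher in Pomc neurons and 2 higher in Npy neurons, against 4.08% and 3.28% of all tested genes (7.36% in either direction). The median log2 difference was 1.11 over the 10 members and 0.015 over all tested genes.

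Genes that neighbour the members on the opposite strand were compared with them. Reads of overlapping partners cannot be told apart when the use of strand in counting is unknown. Raxos1, Tbx3os1 and Gm28528 share 1604, 115 and 168 exon bases with Rax, Tbx3 and Six3. They have no values in these data and could not be compared. Six3os1, a noncoding gene that shares 106 exon bases with Six3, stood at 67.3, 101.7, 76.0 and 69.4 TPM in Pomc 1 to Pomc 4 and at 29.3 and 39.7 TPM in Npy 1 and Npy 2. Like Six3 it was higher in every Pomc library and highest in Pomc 2 (log2 1.16 ± 0.26, limma adjusted p = 0.175). Tbx3os2, a noncoding gene within 1 kb of Tbx3 and without shared bases, stood at 25.5, 18.3, 19.5 and 19.7 TPM against 1.76 and 7.55 TPM. It too was higher in every Pomc library than in either Npy library (log2 2.15 ± 0.56, adjusted p = 0.279). The protein-coding gene 4930447C04Rik, which shares 192 exon bases with Six6, overlapped between the groups, at 24.2 to 57.0 TPM in Npy and 26.6 to 76.0 TPM in Pomc neurons. The annotated span of Fgfr2, a receptor for fibroblast growth factors, covers Hmx2 and Hmx3 without sharing an exon base. Its level of 15.6 to 28.1 TPM in the Pomc libraries against 3.20 and 2.83 TPM (log2 2.50 ± 0.49, adjusted p = 0.0967) ran against that of Hmx3.

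Of 17 listed corepressors and partners, 16 were tested, 1 was called higher in Pomc neurons and none higher in Npy neurons by limma (2 and 0 at an unadjusted p under 0.05), with a median log2 difference of 0.34. Over all tested genes 0.412% were called and 7.36% had an unadjusted p under 0.05. The gene called was Tle4, a Groucho-type corepressor, at 231, 257, 226 and 294 TPM in Pomc 1 to Pomc 4 and 124 and 101.3 TPM in the Npy libraries. Every Pomc library was above both Npy libraries (log2 1.15 ± 0.19, adjusted p = 0.0408), a call that ended without any 1 library. The histone deacetylase gene Hdac2 (451 to 595 TPM over all 6 libraries), the Groucho-related gene Aes (353 to 502 TPM) and the corepressor gene Ctbp1 (288 to 372 TPM) were abundant in both cell types and did not pass.

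Other members of the same gene families were scarce. Of 29 listed relatives, 22 were in the table, 8 of them listed at 0 in all 6 libraries, and 9 were tested. None was called by limma, and 1, the T-box gene Tbr1, had an unadjusted p under 0.05. Mga, a large T-box protein of general expression, was the most abundant of them (37.2 to 98.0 TPM). Of 18 genes for Hedgehog, Bmp, Fgf and Wnt signals of the ventral midline, 12 were tested, none was called and 2 had an unadjusted p under 0.05. Shh, the ventral midline signal that T-box factors restrain in mouse and chick, stood at 28.3, 15.7, 14.9 and 30.4 TPM in Pomc 1 to Pomc 4 and at 4.57 and 10.4 TPM in Npy 1 and Npy 2, without passing (limma adjusted p = 0.546).

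Among 75 further hypothalamic transcription factors, 59 were tested, of which 11 were called higher in Pomc neurons and 1 higher in Npy neurons, against 0.289% and 0.123% of all tested genes. At an unadjusted p under 0.05 there were 16 and 14, and the median log2 difference was 0.23. The genes whose pattern over the 6 libraries was most like that of Tbx3 among 42 such factors with a mean of at least 5 TPM were Sox1 (Pearson r = 0.996 on log2(TPM + 1)), Prdm12 (0.988) and Nhlh2 (0.975). For Otp they were Isl1 (0.915), Bsx (0.835) and Pbx3 (0.816), and for Hmx2 they were Nr2f2 (0.831), Gsx1 (0.757) and Onecut2 (0.754). The points share the group difference, and these coefficients describe 6 libraries only. Isl1, a LIM factor of arcuate neurons, stood at 365, 465, 444 and 452 TPM in the Pomc libraries and 637 and 601 TPM in the Npy libraries, with Pomc 1 lowest for both Isl1 and Otp.

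Of 26 peptide and transmitter genes of the tuberal region, 20 were tested, with a median log2 difference of -0.80. By limma 2 were called higher in Pomc neurons, Slc17a6 and the Pomc gene, whose difference follows from the sort. Another 2, Sst and Ghrh, were called higher in Npy neurons. Of the genes tied to Otp and Hmx2/Hmx3 by mouse mutants, the somatostatin gene Sst ranged from 433 to 653 TPM in Pomc libraries and reached 2108 and 3187 TPM in the Npy libraries (limma adjusted p = 0.00345). Ghrh stood at 96.8 and 112 TPM in Npy neurons and was listed at 0 in 3 of 4 Pomc libraries and at 0.296 TPM in Pomc 3. It met the filter through the Npy libraries alone, so it is counted among the calls but no test value is given for it. The lowest Hmx3 level in a Pomc library was 6.93 TPM.

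Some genes listed as markers of other cells differed between the groups. The first list holds 8 genes of the ventromedial nucleus, in which Nkx2-1 is also expressed. They summed to 363 to 549 TPM in the Pomc libraries and to 34.8 and 12.7 TPM in the Npy libraries. Of the 8, 4 were called higher in Pomc neurons by limma, among them Slc17a6, which is also listed with the tuberal transmitter genes. Adcyap1, 1 of these 4, was listed at 0 in both Npy libraries and met the filter through the Pomc libraries alone. The defining gene Nr5a1 reached 118 to 167 TPM in the Pomc libraries. Among Pomc libraries the sum was highest in Pomc 1, while Nkx2-1, Six3 and Tbx3 were highest in Pomc 2. Of the 8 oligodendrocyte precursor genes, 6 were called higher in Npy neurons, with sums of 245 and 230.5 TPM against 4.86 to 15.2 TPM. Of the 6, all but Olig1 met the filter through the Npy libraries alone, and without either Npy library no marker gene was called higher in Npy neurons. All 14 listed genes of dividing cells were tested and none was called by limma (5 had an unadjusted p under 0.05, all higher in Npy neurons), with sums of 62.2 to 145 TPM in Pomc and 218 and 156 TPM in Npy libraries. In bulk samples, the presence of other cells and expression of these genes in the sorted neurons cannot be told apart. The part of either in the differences of the members was not tested. The 14 general neuronal genes summed to 6264 to 8007 TPM in Pomc libraries and to 5749 and 4823 TPM in Npy libraries. None was called by limma and 5 had an unadjusted p under 0.05, all higher in Pomc neurons. Of 16 pituitary markers, 10 were in the table and summed to 3.45 to 12.9 TPM in Pomc and 5.35 and 12.7 TPM in Npy libraries. The defining genes Pitx1, Pou1f1 and Cga were among 7 listed at 0 in all 6 libraries, and Tbx19, Crhr1 and Pax7 had values, of at most 9.30, 9.99 and 4.34 TPM.

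**Figure D5:**
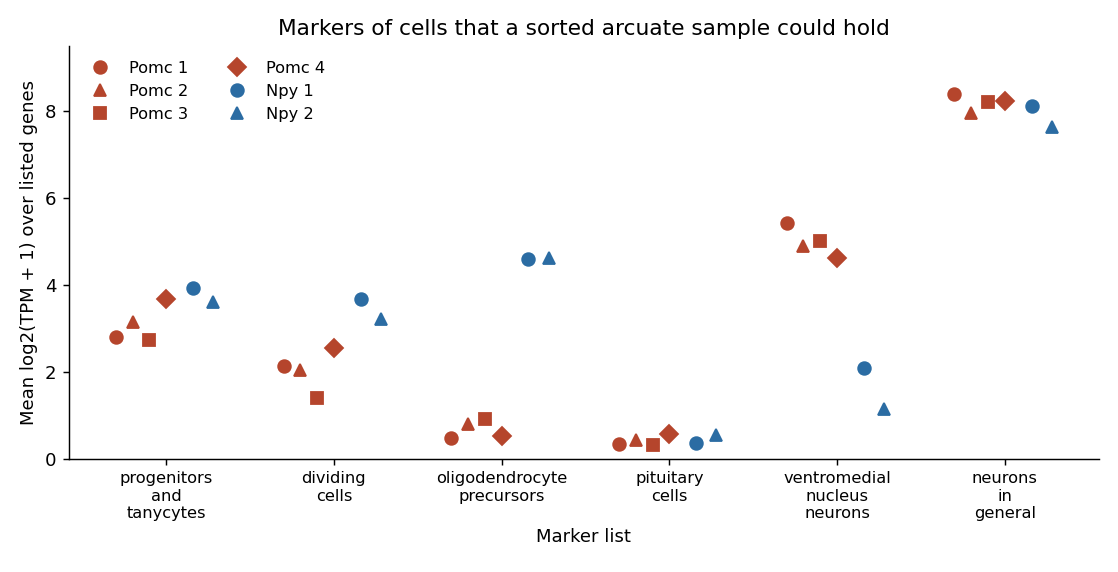
Mean log2(TPM + 1) over the listed marker genes in each library, Pomc in red and Npy in blue. Ventromedial nucleus genes lie higher in the 4 Pomc libraries, oligodendrocyte precursor genes higher in both Npy libraries, pituitary genes below 1 everywhere and general neuronal genes near 8 in both groups.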

How the data were processed

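Total RNA of sorted neurons was read by RNA sequencing in 7 samples. The authors deposited 1 table of values with no unit in its header. These deposited values were taken as TPM, because 6 columns sum to 1000000 and the remaining one, Npy replicate 3, to slightly less. Per the submitters' processing notes, HISAT2, mm10 and edgeR 3.8 were used, in roles the notes do not state. The sources used here do not give the counting tool, annotation, strand setting or gene length definition. TPM keeps no read depth, so no counting error is given, and a 0 means that a gene is listed at 0. Genes above 0 numbered 12493 to 14933 per library, and short RNA genes took 9.36 to 12.0% of Pomc and 13.0 and 15.6% of Npy libraries. After 4 rows with repeated symbols were left out, limma 3.58.1 (R 4.3.3, trend) was fitted to log2(TPM + 1) for genes reaching 1 TPM in at least 2 of 6 libraries, with Benjamini-Hochberg adjustment over all of them and a two-sided threshold of 0.05. The fit was tested on simulated data. The members and lists were chosen with earlier results of these data known. All 10 members are named, with some of the called genes of other lists and at most 4 of their most abundant genes. Other called genes of those lists are counted but not named. Patterns most like Tbx3, Otp and Hmx2 were ranked by Pearson correlation. The other genes named, Tbr1, Shh, Crym, Nr5a1 and the pituitary markers among them, were chosen after their values were seen. Coordinates are GENCODE M21 on GRCm38, the assembly that mm10 denotes, and promoters are RefSeq's.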

Additional observations from a re-analysis of the deposited data

Results flagged for a closer look

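In 59 genes named by the rules and 4 ratios, the Pomc library farthest from the others was set against the range of the 4 Pomc libraries, a comparison in which chance picks about 1 in 20. No member and no ratio stood out. Nkx2-9, a relative of Nkx2-1, reached 18.9 TPM in Pomc 4 and was listed at 0 in the other Pomc libraries. Lmo3, a LIM-only gene, reached 224 TPM in Pomc 1 against 144 to 151 TPM in the others. In the remaining genes, almost without signal in Pomc neurons, any value stands out: Ghrh at 0.296 TPM in Pomc 3, Pdgfra at 0.484 TPM in Pomc 2 and Sox10 at 0.444 TPM in Pomc 4.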

How the results depend on the processing

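Of 139 refitted fold changes of the members under 14 alternatives, none changed sign, 18 lost a call and 1 gained one, Six3 with all 7 columns. That setting treats the Npy column computed from Npy 1 and Npy 2 as a further library, so its p-values and calls are not valid. It is among the alternatives counted below as calling Nkx2-1 and Tbx3. The 2 calls among the members fell to 1 with a pseudocount of 0.1 and under median-of-ratios scaling, to 0 with no filter, a single prior variance or the replicate block, and to between 0 and 1 with a library left out. Nkx2-1 was called in 7 of 14 alternatives and Tbx3 in 3; with the replicate block their adjusted p were 0.0576 and 0.413. With a pseudocount of 0.1 the log2 differences of the low genes Tbx2 (3.63) and Rax (2.57) were above that of Nkx2-1 (2.11). Over all genes the 57 calls became 37, 33, 205 and 12 with the pseudocount of 0.1, no filter, all 7 columns and the replicate block, and 22 to 69 with a library left out. The 17 calls on the pathway lists became 11 with a single prior variance, 28 with all 7 columns and 5 with the replicate block (13 to 18 with a library left out). The 11 marker calls became 4 with the pseudocount of 0.1, 7 with a filter of 5 TPM and 3 with the replicate block (4 to 11). Tbx2 did not meet the filter of 5 TPM. The ratio difference of Hmx2 to Hmx3 turned to -0.14 within replicate numbers 1 and 2 (the replicate block) and ranged from -0.15 to 0.97 with a library left out, and that of Tbx3 to Tbx2 from -0.76 to 0.047. The replicate numbers are shared only as numbers: deviations of same-numbered libraries correlated across genes at -0.04 and -0.03. Rescaling moved the median of all genes from 0.015 to -0.03 without short RNA genes and -0.02 under median-of-ratios scaling. With 1 Npy library left out, the lone Npy library is assumed to vary like the Pomc libraries. The cause of these changes was not tested, and the 2 Npy libraries limit every comparison.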
